A study of Homo sapiens with 4 samples.

Results

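The genes described here are 42 genes of S phase and DNA replication, named by symbol from the classes of origin licensing, helicase, polymerase, clamp, nucleotide synthesis, histone deposition and E2F genes. They were found among 34692 gene entries of an expression array, each entry standing for 1 gene symbol. All 42 had an entry. Of these, 37 were detected on at least 2 of the 4 arrays and could be tested, and 5 (PCNA, E2F1, POLD3, PRIM2 and GINS1) were not.

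A dividing cell copies its DNA once in each S phase. Before S phase, CDC6 and CDT1 load the ring-shaped MCM2-7 helicase onto origins of replication. The GINS complex and MCM10 then help to switch the helicase on, RPA coats the single strands, primase and DNA polymerase alpha start each new strand, the RFC loader places the PCNA clamp, and polymerases delta and epsilon extend. FEN1 and LIG1 join the lagging-strand pieces, while CHAF1A and CHAF1B, subunits of chromatin assembly factor 1, place histones on the new DNA. Many of these genes are transcribed under the control of E2F factors, of which E2F2 is also known from dividing red cell precursors.

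RNA came from K562, a human cell line of chronic myelogenous leukaemia that has erythroid features, in 2 groups of 2 arrays. One group held stable transductants that over-expressed the zinc finger gene ZNF16 (H4-1 and H4-2, here ZNF16 replicates 1 and 2), and the other stable control transductants (PC1 and PC2, here control replicates 1 and 2). Both groups thus carried a stable transduction, and both were kept in RPMI medium with fetal calf serum. The sources used here do not give the vector, its promoter or whether a transductant was a single clone. Nothing in the labels says that the samples of a group were derived separately, so the p-values below reflect the spread of these arrays alone, which may be technical. Between 9913 and 10762 entries were detected on an array. The ZNF16 entry was detected on none, with detection p-values from 0.343 to 0.693; it combines several probes of unknown position and so does not check the labels. Of 16 genes that mark K562, 15 were detected on all 4 arrays, and ALAS2, whose entry combines several probes, on none. Among markers of other cells, CD3D (of 6 lymphoid genes) and EPCAM (of 4 epithelial genes) were detected on all 4 arrays, and none of 6 fibroblast genes was. The deposited signals of the K562 markers summed to 299188 (ZNF16 replicate 1), 297805 (ZNF16 replicate 2), 297778 (control replicate 1) and 267774 (control replicate 2).

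Promoter sequence was not used to choose the members, but many of these genes were known to be under E2F control. The share of E2F motifs below is therefore a description. RefSeq promoters (GRCh38.p14, 250 bases before to 50 bases after the start of transcription) were at hand for 36 of the 42. The E2F motif was searched on both strands in its spellings TTTCCCGC, TTTCGCGC, TTTGCCGC and TTTGGCGC, with overlapping matches kept. It was found in 19 of the 36 member promoters, 52.8% (Wilson 95% interval 37.0% to 68.0%), against 908 of all 27305 promoters, 3.33%. The interval treats promoters as independent. CCAAT, another common promoter element, was also in 19 of 36, against 35.7% of all promoters. A match is a run of letters and not a measured binding site. Promoters are shown for the 3 tested genes of smallest p in each direction of the ZNF16 against control comparison that held an E2F motif, from 150 bases before to 25 bases after the start, 5′ to 3′ on the gene's strand with the motif in capitals. The genes with the higher mean signal with ZNF16 were E2F2 at chr1:23531209-23531383 on the minus strand, POLA2 at chr11:65261812-65261986 on the plus strand and GINS3 at chr16:58392321-58392495 on the plus strand.
E2F2: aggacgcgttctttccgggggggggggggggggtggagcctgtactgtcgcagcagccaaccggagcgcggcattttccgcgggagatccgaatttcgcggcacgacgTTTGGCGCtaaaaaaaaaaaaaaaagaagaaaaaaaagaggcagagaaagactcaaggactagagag
POLA2: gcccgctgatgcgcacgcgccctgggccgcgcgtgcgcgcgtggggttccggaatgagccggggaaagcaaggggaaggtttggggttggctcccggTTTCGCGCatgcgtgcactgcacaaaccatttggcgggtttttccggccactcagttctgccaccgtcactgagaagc
GINS3: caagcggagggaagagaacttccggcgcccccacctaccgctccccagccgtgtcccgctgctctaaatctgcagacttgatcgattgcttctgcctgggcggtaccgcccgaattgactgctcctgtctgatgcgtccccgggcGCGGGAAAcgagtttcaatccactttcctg
The genes with the lower mean signal with ZNF16 were LIG1 at chr19:48170320-48170494 on the minus strand, POLE at chr12:132687318-132687492 on the minus strand and MCM2 at chr3:127598261-127598435 on the plus strand.
LIG1: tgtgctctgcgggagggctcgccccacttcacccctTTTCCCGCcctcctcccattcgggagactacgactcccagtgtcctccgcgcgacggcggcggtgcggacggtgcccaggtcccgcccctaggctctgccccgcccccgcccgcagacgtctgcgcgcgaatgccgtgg
POLE: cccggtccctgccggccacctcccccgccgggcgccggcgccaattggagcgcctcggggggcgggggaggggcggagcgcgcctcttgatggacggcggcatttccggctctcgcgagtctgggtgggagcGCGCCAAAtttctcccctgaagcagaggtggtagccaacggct
MCM2: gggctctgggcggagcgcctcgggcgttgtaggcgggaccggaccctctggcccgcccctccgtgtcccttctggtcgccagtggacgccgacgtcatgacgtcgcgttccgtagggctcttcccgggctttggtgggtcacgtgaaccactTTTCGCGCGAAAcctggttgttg
Counting from the start of transcription as 1, with no 0, the motif began at base −42 in E2F2, −53 in POLA2, −5 in GINS3, −114 in LIG1 and −18 in POLE. In MCM2 it overlapped its own reverse complement, and the pair began at bases 3 and 7. The genes shown were picked from each direction by rule, so their lying on both sides of the comparison is not a result. Among tested members with a promoter, the median log2 fold change was 0.16 for the 16 with the motif (12 higher, 4 lower with ZNF16) and 0.04 for the 16 without it (10 higher, 6 lower).

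None of the replication genes differed between ZNF16 and control cells past the adjusted threshold, and most lay close to equal in the 2 groups. Of the 37 tested, 24 had a higher and 13 a lower mean with ZNF16, against 51.3% and 48.7% of all 10868 tested entries. Under median scaling, which moved the median over all tested entries to −0.19, 12 members were higher and 25 lower (28.3% and 71.7% of all entries), and their median was −0.12. Their median log2 fold change was 0.11, beside 0.01 over all tested entries, with a range from −0.50 (LIG1) to 1.17 (CHAF1A). In limma's test 0 rose and 0 fell at a Benjamini-Hochberg adjusted p under 0.05, as for 0.0% of all entries in each direction, and the smallest adjusted p of a member was 0.625. At an unadjusted p under 0.05, 2 were higher (E2F2 and CHAF1A) and 0 lower, beside 3.66% and 4.01% of all entries. Both ZNF16 arrays lay above both control arrays in 8 members and below them in 3, where 21.0% and 19.0% of all entries did so; under median scaling the counts were 0 and 12, where 5.59% and 38.6% of all entries did so. In the main setting these 11 made up 29.7% of the members, below the share over all entries. The arrays measured bulk RNA, in which a change in the share of cells in S phase and a change in RNA per cell cannot be told apart.

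**Figure D1:**
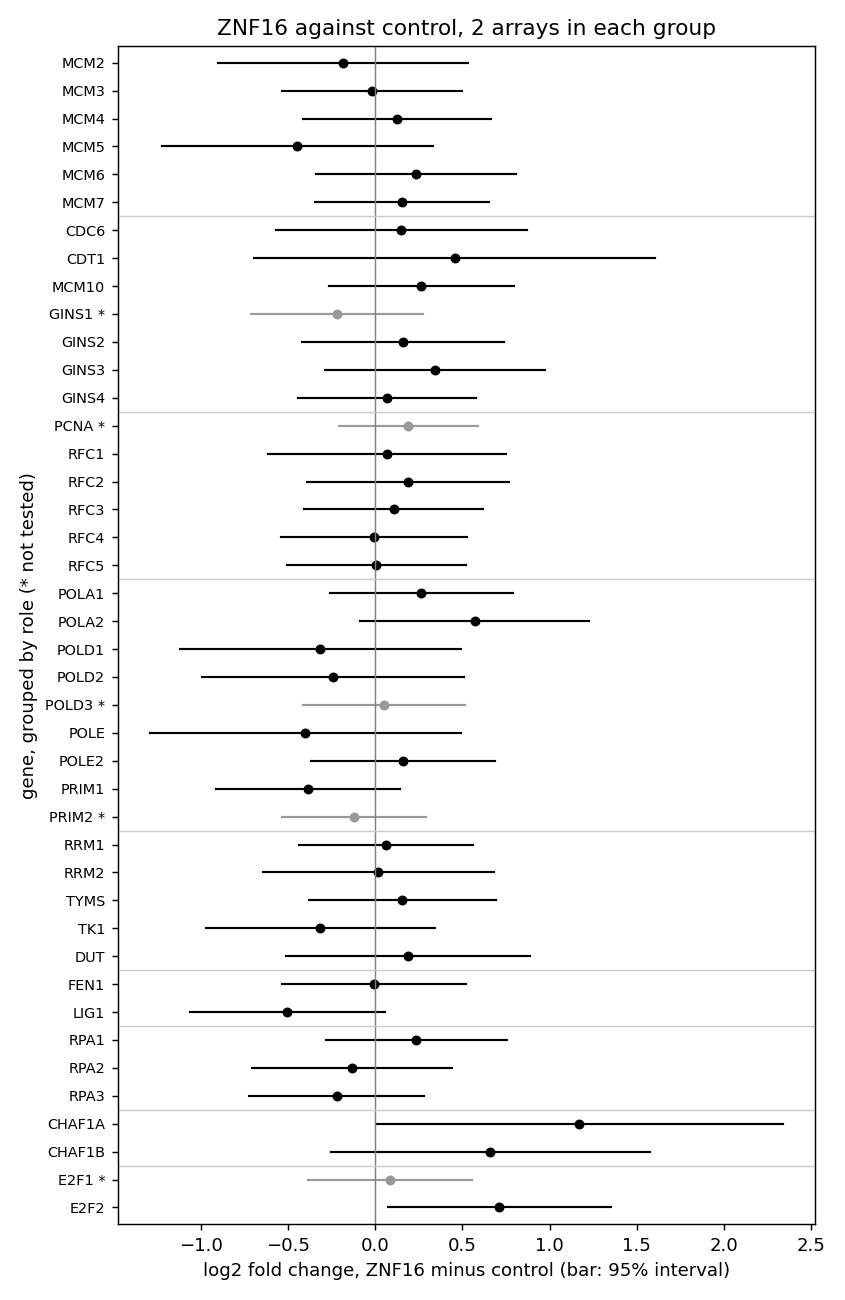
Log2 fold change of each replication gene, ZNF16 minus control (x axis), grouped by role, with 95% intervals from limma and 2 arrays in each group. Points lie between −0.50 and 1.17, and the intervals of E2F2 and CHAF1A alone stay above 0 before adjustment; grey genes with an asterisk were not tested.

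The arrays differed from each other in an uneven way over these genes. Between ZNF16 replicate 1 and ZNF16 replicate 2, 0 of 37 members were over 1.5-fold apart, where 8.92% of all entries were. Control replicate 1 lay as near to them, with 0 of 37 members over 1.5-fold from ZNF16 replicate 1 (13.1% of all entries) and 0 of 37 from ZNF16 replicate 2 (10.6% of all entries). These 3 arrays thus held the replication genes at signals within 1.5-fold of each other in this normalization, whichever group they belonged to. Under a stricter filter, a detection p under 0.01 on all 4 arrays, 34 members stayed. The 3 counts were again 0, but 3.92%, 9.22% and 7.20% of all entries were then that far apart. The widest member gaps lay just inside the 1.5-fold limit, which is 0.585 on the log2 scale. They were 0.583 for RRM2 between the ZNF16 arrays, 0.56 for CHAF1A from ZNF16 replicate 1 to control replicate 1, and −0.53 for CDT1 on ZNF16 replicate 2 minus control replicate 1. Under median scaling in place of quantile normalization the same 3 counts were 2, 1 and 5 (5.41%, 2.70% and 13.5% of members, against 9.71%, 16.9% and 23.8% of all entries). With negative-control statistics over all entries they were 2, 1 and 1 (5.41%, 2.70% and 2.70%, against 1.03%, 2.55% and 2.03% of all entries), so that the members' shares were then not below those of all entries.

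Control replicate 2 stood apart. From it, 14 members (37.8%) were over 1.5-fold away on ZNF16 replicate 1, where 30.3% of all entries were. On ZNF16 replicate 2 there were 10 (27.0%, against 23.5% of all entries), and on control replicate 1, its own group, 13 (35.1%, against 23.8%). The SD of the log2 differences over members was 0.23, 0.25 and 0.21 among the other 3 arrays and 0.71, 0.56 and 0.63 against control replicate 2. Over all tested entries it was 0.34, 0.41 and 0.38 among the other 3 and 0.61, 0.53 and 0.52 against control replicate 2. In this setting the members were closer together than all entries among the other 3 arrays and further apart against control replicate 2. Each part of that turned for all 3 pairs in 1 alternative. With no background correction the first part also turned between the ZNF16 arrays alone, at 0.175 for members and 0.169 over all entries. With a detection p under 0.01 on all 4 arrays, the members' SDs among the other 3 arrays were 0.23, 0.25 and 0.20. Over all such entries they were 0.27, 0.36 and 0.33. With negative-control statistics over all entries, the members' SDs among the other 3 arrays (0.23, 0.27 and 0.25) were above those of all entries (0.14, 0.20 and 0.18). In the authors' processed values, their SDs against control replicate 2 (0.73, 0.60 and 0.67) were below those of all entries (0.85, 0.76 and 0.72). The 6 comparisons share arrays and are not independent of each other, and the counts were defined after the values were seen.

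**Figure D2:**
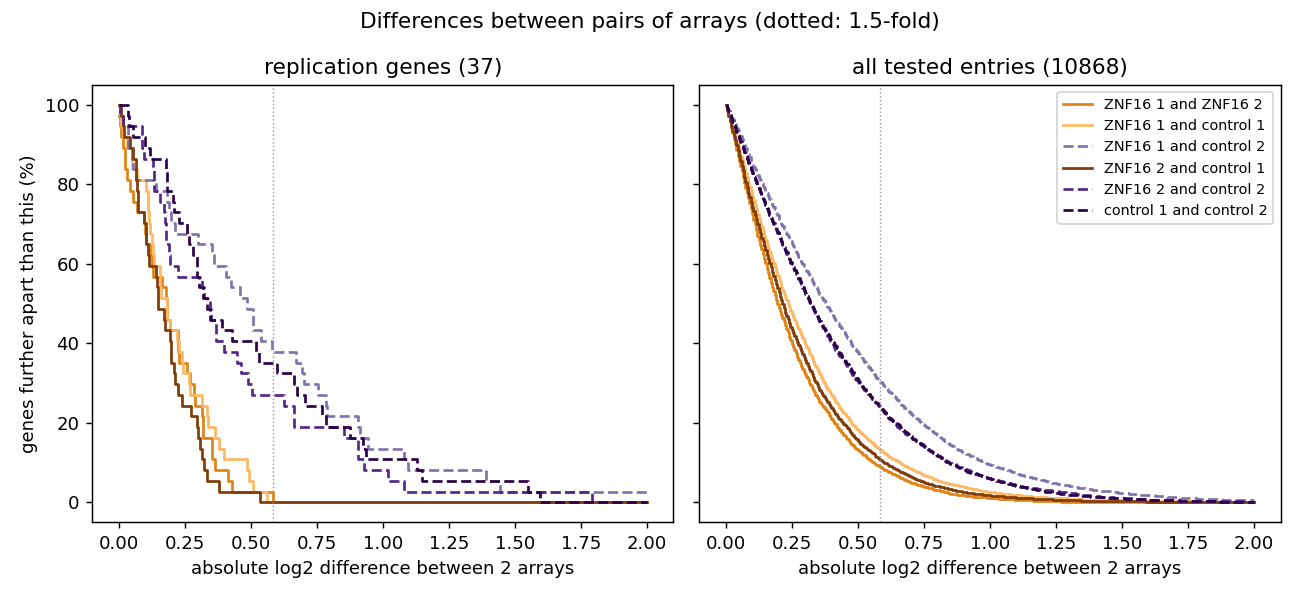
Share of genes (y axis, percent) whose 2 signals on a pair of arrays lie further apart than a given absolute log2 difference (x axis), for the 37 replication genes and for all 10868 tested entries, with a dotted line at 1.5-fold. On the left the solid lines, for pairs without control replicate 2, have reached 0 at 1.5-fold, while the dashed lines, for pairs with it, lie between 27.0% and 37.8%.

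Against all 3 other arrays at once, control replicate 2 was over 1.5-fold above in 4 members (MCM5, POLD1, POLD2 and POLE; 5.97% of all entries) and over 1.5-fold below in 5 (CDT1, CHAF1A, CHAF1B, E2F2 and POLA2; 5.53% of all entries). The member nearest above the limit was E2F2, 0.60 from the nearest other array on the log2 scale, and the nearest below it was MCM2, at 0.49. On each of the other arrays 0 members were that far above or below the rest, where 0.681% and 1.47% of all entries were on ZNF16 replicate 1, 0.35% and 0.506% on ZNF16 replicate 2, and 0.718% and 0.626% on control replicate 1. With no size limit, control replicate 2 had the highest signal in 12 members and the lowest in 21, and in 4 lay within the other 3. It thus lay outside the range of the other 3 arrays for 89.2% of members, beside 67.5% of all entries. In each gene the highest and the lowest array both count as outside. The share was 62.2% for ZNF16 replicate 1 (52.3% of all entries), 8.11% for ZNF16 replicate 2 (35.5%) and 40.5% for control replicate 1 (44.4%). Under median scaling the shares for control replicate 2 were 64.9% of members and 59.9% of all entries. Of the 15 detected K562 markers, 6 had their highest and 8 their lowest normalized signal on this array. Its summed marker signal of 267774 was the lowest of the 4. That sum is of signals before normalization and is made up mostly of HBG1, HBG2 and HBE1, which each read 60392 to 68827. It therefore does not stand for the markers one by one. The part of these marker differences in the values of the replication genes was not tested. The number of detected entries on control replicate 2, 10585, lay within those of the other arrays. Values below are given with and without control replicate 2, because it stood apart.

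**Figure D3:**
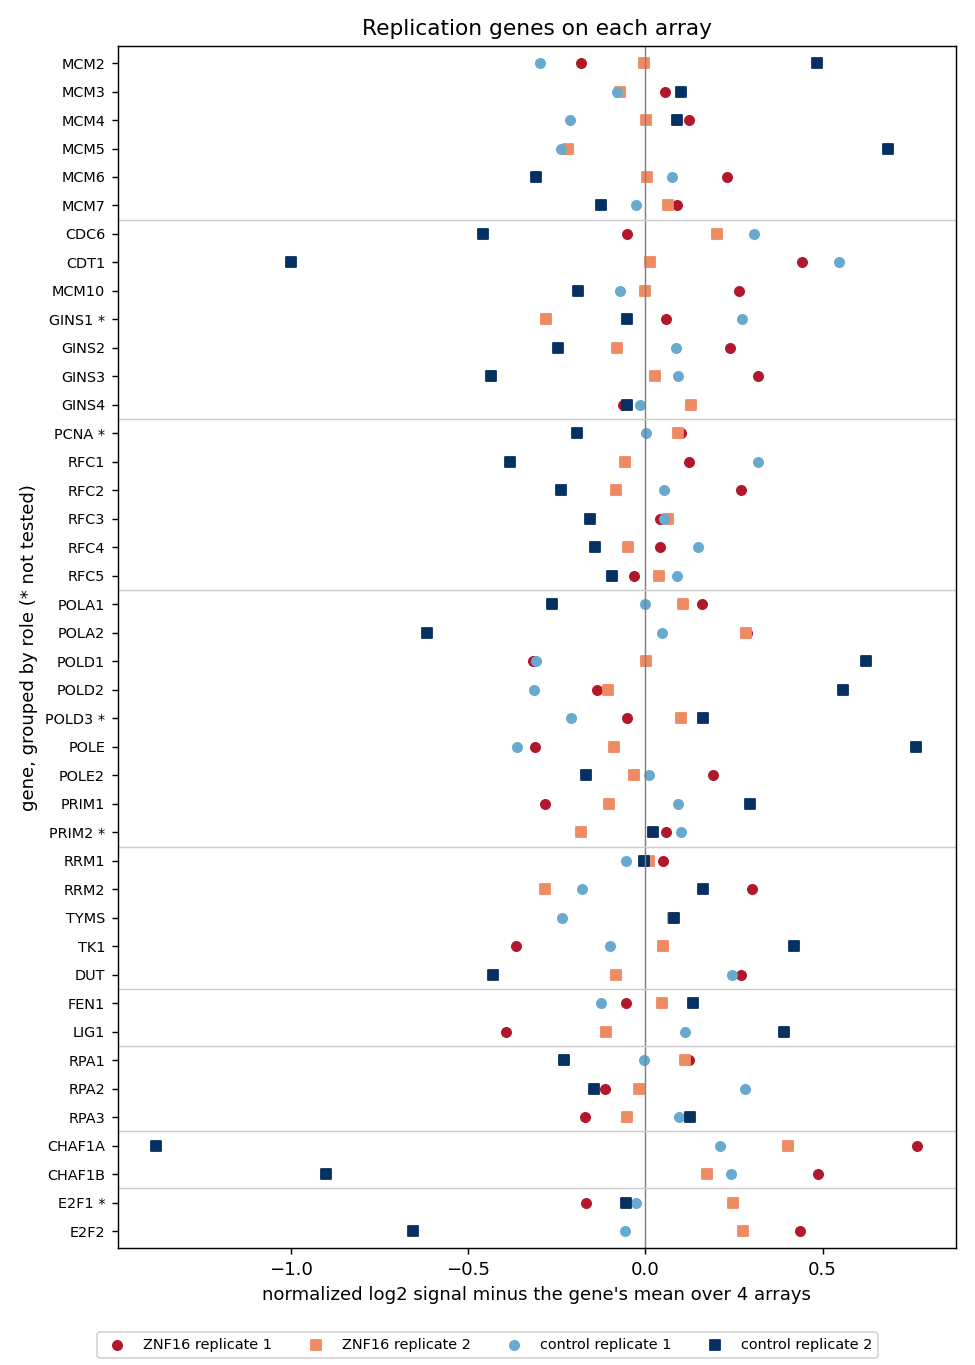
Normalized log2 signal of the 42 replication genes on each array (x axis), minus the gene's mean over the 4 arrays, grouped by role. The dark blue squares of control replicate 2 lie outside the other 3 arrays in 33 of 37 tested genes, far to the left in CHAF1A, CDT1 and CHAF1B and far to the right in POLE, MCM5, POLD1 and POLD2; an asterisk marks genes that were not tested.

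Values per array are normalized log2 signals in the order ZNF16 replicate 1, ZNF16 replicate 2, control replicate 1 and control replicate 2, and fold changes are ZNF16 minus control with the SE of limma's fit. All 6 helicase subunits MCM2 to MCM7 were tested, and their median log2 fold change was 0.05. Of these, 3 had a higher and 3 a lower mean with ZNF16. Under median scaling 1 was higher and 5 lower, where 28.3% and 71.7% of all entries were. MCM5 read 10.21, 10.21, 10.20 and 11.12, a log2 fold change of −0.45 ± 0.33 (adjusted p = 0.731). Its first 3 values were all but equal, and without control replicate 2 the difference was 0.01. MCM2 read 10.65, 10.83, 10.54 and 11.32, and its difference went from −0.19 to 0.20 when control replicate 2 was left out. MCM3, MCM4, MCM6 and MCM7, the other ring subunits, had fold changes between −0.02 and 0.23 (between 0.04 and 0.27 without control replicate 2), and MCM7 alone of the 6 had both ZNF16 arrays above both controls.

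Of the genes that license origins and activate the helicase, all 6 tested had a higher mean with ZNF16. Their median log2 fold change was 0.21, and 0.02 without control replicate 2. Under median scaling 4 were higher and 2 lower (28.3% and 71.7% of all entries). In 5 of the 6, control replicate 2 had the lowest signal. CDT1, the loader of the helicase, read 11.90, 11.47, 12.01 and 10.46, so that the 2 control arrays were 2.93-fold apart and enclosed both ZNF16 arrays. Its log2 fold change of 0.45 ± 0.48 (adjusted p = 0.824) turned to −0.32 without control replicate 2. CDC6, which acts with CDT1, read 6.82, 7.07, 7.18 and 6.41 and was detected on 1 array of each group, with a fold change of 0.15 that turned to −0.23 without control replicate 2. GINS3, a subunit of the helicase-activating GINS complex, read 10.59, 10.30, 10.37 and 9.84, a difference of 0.34 ± 0.26 (adjusted p = 0.749) and of 0.08 without control replicate 2. MCM10, which joins the helicase as it starts, read 9.86, 9.59, 9.52 and 9.40 (0.26 ± 0.22, adjusted p = 0.771), and was the gene of this class whose groups did not overlap. Leaving out control replicate 2 gave 0.20. GINS2 and GINS4 had fold changes of 0.16 and 0.07, and −0.01 and 0.05 without control replicate 2. GINS1 was detected on control replicate 1 only and was not tested.

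The clamp loader subunits RFC1 to RFC5 had log2 fold changes between −0.01 and 0.19 (between −0.29 and 0.04 without control replicate 2). Of these, 4 were higher and 1 lower. Under median scaling all 5 were lower, as were 71.7% of all entries. In all 5, control replicate 2 had the lowest signal. RFC1, the large subunit, read 9.08, 8.89, 9.27 and 8.57, so that the 2 controls were 1.63-fold apart. Its difference of 0.07 became −0.29 when control replicate 2 was left out and 0.42 when control replicate 1 was. RFC2 read 9.13, 8.78, 8.92 and 8.63 (0.19 ± 0.24, adjusted p = 0.855), with the groups overlapping, and 0.04 remained without control replicate 2. PCNA, the clamp itself, read 9.50, 9.49, 9.40 and 9.21, but its detection p-values lay between 0.0754 and 0.131, so that it was not tested. The PCNA entry combines several probes. Its deposited signals lay between 970 and 1110, and the negative-control means of the arrays between 370 and 393. The detection p-values of this entry therefore do not show that PCNA RNA was absent. The PCNA difference was 0.19 ± 0.16, and 0.09 without control replicate 2.

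The polymerase genes varied among themselves. Both subunits of polymerase alpha, which starts new strands together with primase, had both ZNF16 arrays above both controls. POLA2 read 10.79, 10.79, 10.55 and 9.89, a log2 fold change of 0.57 ± 0.28 (adjusted p = 0.662), which was 0.24 without control replicate 2. POLA1, the catalytic subunit, read 10.03, 9.97, 9.87 and 9.60 (0.26 ± 0.22, adjusted p = 0.767), and 0.13 without control replicate 2. PRIM1, the catalytic subunit of primase, was on the other side, with 11.23, 11.41, 11.61 and 11.81, both ZNF16 arrays below both controls (−0.39 ± 0.22, adjusted p = 0.677). Without control replicate 2 its difference was −0.29. The subunits POLD1 and POLD2 of polymerase delta and POLE of polymerase epsilon shared a pattern in which control replicate 2 was far above the rest. POLE read 8.61, 8.83, 8.56 and 9.69, and the 2 controls were 2.18-fold apart. In POLD1 and POLD2 the 2 controls were 1.91-fold and 1.83-fold apart. The fold changes of −0.40, −0.32 and −0.24 for POLE, POLD1 and POLD2 turned to 0.16, 0.15 and 0.19 without that array. POLE2, another subunit of polymerase epsilon, did not share the pattern, with 11.17, 10.94, 10.99 and 10.81 (a fold change of 0.16, and 0.07 without control replicate 2). POLD3 and PRIM2 were detected on no array.

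Genes that supply nucleotides overlapped between the groups in 4 of 5 cases. RRM1, the large subunit of ribonucleotide reductase, read 13.30, 13.26, 13.20 and 13.25, with both ZNF16 arrays just above both controls and a fold change of 0.06, or 0.08 without control replicate 2. RRM2, its small subunit, read 10.19, 9.61, 9.71 and 10.05, so that the 2 ZNF16 arrays enclosed the controls, and its fold change of 0.02 became 0.19 without control replicate 2. TK1, thymidine kinase, read 11.48, 11.89, 11.74 and 12.26 (−0.32 ± 0.28, adjusted p = 0.780), and −0.06 was left without control replicate 2. TYMS, which makes thymidylate, had a fold change of 0.15 (0.31 without control replicate 2). DUT, which clears dUTP, went from 0.19 to −0.15 when that array was left out.

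In the joining of lagging-strand pieces, LIG1, DNA ligase 1, had the lowest fold change of all members. It read 8.87, 9.15, 9.38 and 9.65, with both ZNF16 arrays below both controls, a log2 fold change of −0.50 ± 0.23 (95% interval −1.06 to 0.05, adjusted p = 0.657). Without control replicate 2 the difference was −0.37, and with negative-control statistics over all entries it was −0.12. FEN1, the flap nuclease, lay at −0.01 (0.12 without control replicate 2). Of the RPA subunits that bind single strands, RPA1 was higher (11.24, 11.23, 11.11 and 10.88; 0.23 ± 0.22, adjusted p = 0.794) and RPA3 lower (12.19, 12.30, 12.45 and 12.48; −0.22 ± 0.21, adjusted p = 0.798), each with groups that did not overlap. Without control replicate 2 they differed by 0.12 and −0.21. RPA2 lay at −0.13 with overlap, and at −0.35 without that array.

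Both histone deposition genes had a higher mean with ZNF16, also under median scaling (0.91 for CHAF1A and 0.46 for CHAF1B). CHAF1A, the large subunit of chromatin assembly factor 1, read 9.40, 9.04, 8.84 and 7.25, a log2 fold change of 1.17 ± 0.49 (2.25-fold, unadjusted p = 0.0497, adjusted p = 0.649 in limma's test). Its groups did not overlap, but the 2 controls were 3.02-fold apart, further than the group means. Leaving out control replicate 2 gave 0.38, and leaving out control replicate 1 gave 1.97. The size also depended on the background correction, with 0.56 when none was made and 0.16 with negative-control statistics over all entries, where CHAF1B had 0.50 and 0.41. CHAF1B, the middle subunit, read 10.99, 10.68, 10.75 and 9.60 (0.66 ± 0.38, adjusted p = 0.685), with control replicate 1 between the ZNF16 arrays, and 0.09 without control replicate 2.

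E2F2, a transcription factor that drives S phase genes, had the smallest p among the members. It read 11.67, 11.51, 11.18 and 10.58, with both ZNF16 arrays above both controls. The log2 fold change was 0.71 ± 0.27 (1.64-fold, 95% interval 0.07 to 1.35, unadjusted p = 0.0337, adjusted p = 0.625 in limma's test). Without control replicate 2 it was 0.41, the largest value of any tested member in that comparison. E2F1 was detected on no array. Because both ZNF16 arrays lay above both controls, every leave-one-out difference of E2F2 had to be positive, and these ran from 0.41 to 1.01. Under median scaling the difference was 0.56. E2F2 did not pass the adjusted threshold.

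**Figure D4:**
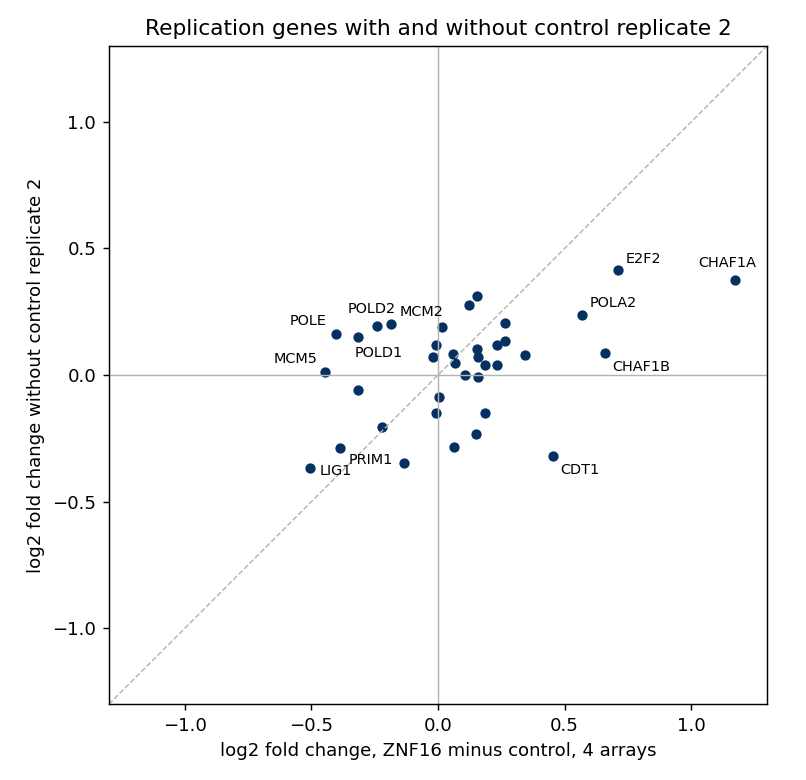
Log2 fold change of each of the 37 tested replication genes with all 4 arrays (x axis) and without control replicate 2 (y axis), with a dashed line where both are equal. CHAF1A falls from 1.17 to 0.38 and CDT1 from 0.45 to −0.32, and 13 of the 37 genes change sign; the 2 axes share 3 arrays.

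Leaving out control replicate 2 changed the sign of 13 of 37 members. It narrowed the range of their fold changes to −0.37 to 0.41, with a median of 0.07. Leaving out ZNF16 replicate 1, ZNF16 replicate 2 or control replicate 1 changed the sign of 4, 4 and 5 members. Control replicate 2 was singled out because it stood apart on these same genes, so a narrower range without it was built in and is not a separate result. Sign changes over all entries were not counted. Without control replicate 2 the group difference rests on 1 control array, which is assumed to vary like the ZNF16 arrays.

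Other genes of the same process and of the next stage of the cycle passed the adjusted threshold in 0 cases. Of 54 further replication genes, among them the origin recognition complex and S phase regulators, 41 were tested, 22 with a higher and 19 with a lower mean with ZNF16. Their median log2 fold change was 0.08 (−0.15 under median scaling). At an unadjusted p under 0.05, 1 was higher and 1 lower, beside 3.66% and 4.01% of all entries. The groups did not overlap in 11 higher and 7 lower, against 21.0% and 19.0% of all entries. DTL, a substrate adaptor that marks CDT1 for destruction, read 7.95, 7.34, 8.39 and 8.27 (−0.68 ± 0.27, adjusted p = 0.636), below both controls on both ZNF16 arrays, and −0.74 without control replicate 2. CCNE1, cyclin E1, which drives entry into S phase, read 9.80, 9.65, 9.21 and 9.18 (0.53 ± 0.21, adjusted p = 0.643). In CCNE1 the 2 controls lay side by side, and the difference without control replicate 2 was 0.51. TIMELESS, a fork protection gene, TOP1, topoisomerase I, and DNA2, a flap nuclease and helicase, had fold changes of 0.48, 0.50 and 0.47 (adjusted p = 0.662, 0.662 and 0.674), and 0.31, 0.25 and 0.26 without control replicate 2.

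Of 23 genes of G2 and mitosis with an entry, 20 were tested, 12 higher and 8 lower. Their median was 0.04 (−0.14 under median scaling). At an unadjusted p under 0.05, 1 was higher and 0 lower, beside 3.66% and 4.01% of all entries. CCNB1, cyclin B1, read 9.53, 9.38, 8.89 and 8.44 (0.79 ± 0.24, adjusted p = 0.543), with both ZNF16 arrays above both controls, and 0.57 without control replicate 2. CDC20, an activator of the anaphase-promoting complex, read 13.99, 13.67, 13.58 and 12.72 (0.68 ± 0.32, adjusted p = 0.657), and 0.25 without control replicate 2. CCNB2, cyclin B2, had a fold change of 0.35 (adjusted p = 0.702), and 0.24 without control replicate 2. CENPA, the centromeric histone, and TOP2A, topoisomerase II alpha (also counted among the other replication genes), had −0.24 and −0.27 (adjusted p = 0.788 and 0.793), and −0.32 and −0.02 without control replicate 2. In TOP2A the first 3 arrays read 12.47, 12.49 and 12.50 and control replicate 2 read 13.01, as in MCM5.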

How the data were processed

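RNA from 4 K562 samples was measured on Illumina HumanHT-12 V4 arrays. The deposited signals are linear bead intensity values, made in GenomeStudio 2010.2, according to the submitters' processing notes, with 1 row for each gene symbol. The sources used here do not give the genome build or how a gene's probes were combined. A detection p-value was deposited beside every signal, per the file headers. Those of single probes lie on steps of 1 in 770 (within 0.002 for 27095 entries), and the other 7597 entries were taken as averages over probes. A second table, the authors' processed intensity values, follows a straight line of each array's signal and served as an alternative.

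The negative-control mean and SD of each array were worked out from single-probe detection p-values. Signals were corrected with normexp (limma 3.58.1, R 4.3.3), given an offset of 16, quantile normalized and taken to log2. Entries with a detection p under 0.05 on at least 2 of the 4 arrays were tested, 10868 in all, with limma's lmFit and eBayes, two-sided, Benjamini-Hochberg over all of them, threshold 0.05. The number of arrays limits the precision. Alternatives changed the scaling, background correction, offset, filter, variance model and blocking, and left out each array in turn.

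The members, lists and rules were chosen with earlier results of these data known. Per-array values were given for members at an unadjusted p under 0.05, filled up to 12 by smallest p, for the smallest p of each role, and for genes detected in 1 group only. Values of MCM2, CDC6, CDT1, the POLD and POLE genes, RFC1, RRM1, RRM2, RPA3 and PCNA, and the 1.5-fold counts between arrays, were chosen after values were seen. Of the other lists, up to 5 genes of smallest p were named. Of the list genes, 9 were matched by an older symbol.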

Additional observations from a re-analysis of the deposited data

How the results depend on the processing

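The number of members past the adjusted threshold was 0 in each direction under all 14 alternatives. Median scaling moved the median of all entries from 0.01 to −0.19. It gave medians of −0.12 for the members, −0.15 for the other replication genes, −0.14 for the G2 and mitosis genes, −0.12 for MCM2-7, −0.16 for the clamp and loader, −0.405 for the polymerases and primase, −0.12 for nucleotide supply, −0.46 for flap removal and ligation and −0.32 for single-strand binding. Set against the shift of all entries, the member median stayed above it. Under the same scaling RFC2 went to −0.086 and PCNA to −0.048, and the groups did not overlap in 0 higher and 12 lower members (5.59% and 38.6% of all entries).

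At an unadjusted p under 0.05 (2 higher, 0 lower), median scaling gave 0 and 1, no background correction 1 and 1, no filter 1 and 1, the authors' processed values 0 higher, and negative-control statistics worked out over all entries 2 lower. These shares over all entries were 1.18% and 11.1% with median scaling and between 2.84% and 3.81% in the other 4 settings. The last statistics also moved the median to 0.018 for the members, −0.069 for flap removal and ligation, −0.10 for polymerases and primase and 0.28 for histone deposition, which was 0.53 with no background correction. The processed values gave a G2 and mitosis median of 0.091, and fitting every entry an E2F median of 0.40.

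With a replicate block, 4 members were higher at an unadjusted p under 0.05 (5.79% of all entries), and the smallest adjusted p was 0.0846 (CHAF1A). The labels do not say that the numbers pair the samples, and same-numbered arrays correlated at 0.19 in their deviations. Over all entries, 42 and 72 passed in the blocked fit.

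Leaving out each array in turn gave 0 to 6 members higher and 0 to 6 lower at an unadjusted p under 0.05, where 1.25% to 12.6% and 1.27% to 12.2% of all entries were. It gave 10 to 22 higher and 4 to 12 lower without overlap, where 31.1% to 42.0% and 28.9% to 38.7% of all entries were. The medians ran from 0.04 to 0.15 for the members, −0.024 to 0.12 for the other replication genes, −0.015 to 0.062 for G2 and mitosis, −0.07 to 0.10 for MCM2-7, 0.02 to 0.43 for licensing, −0.085 to 0.21 for the clamp and loader, −0.49 to 0.15 for polymerases and primase, 0.00 to 0.15 for nucleotide supply, −0.39 to −0.12 for flap removal and ligation, −0.21 to 0.078 for single-strand binding, 0.23 to 1.60 for histone deposition and 0.41 to 1.01 for E2F2. Of the 13 fold changes that turned sign without control replicate 2, 6 ran over the leave-one-out comparisons from −0.91 to 0.013 in MCM5, −0.32 to 1.23 in CDT1, −0.58 to 0.20 in MCM2, −0.96 to 0.16 in POLE, −0.78 to 0.15 in POLD1 and −0.68 to 0.19 in POLD2. The other 7, without control replicate 2, were 0.071 in MCM3, −0.23 in CDC6, −0.0075 in GINS2, −0.29 in RFC1, −0.085 in RFC5, −0.15 in DUT and 0.12 in FEN1.

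Members over 1.5-fold apart numbered 2 (median scaling), 2 (negative-control statistics over all entries) and 1 (processed values) between ZNF16 replicates. The shares over all entries were 9.71%, 1.03% and 17.0%. Under the first 2 settings 1 and 1 members were that far apart between ZNF16 replicate 1 and control replicate 1 (16.9% and 2.55% of all entries). Between ZNF16 replicate 2 and control replicate 1 they numbered 5 and 1 (23.8% and 2.03%). With no background correction, 9, 6 and 8 members were that far from control replicate 2. These were on ZNF16 replicate 1, ZNF16 replicate 2 and control replicate 1. They made up 24.3%, 16.2% and 21.6% of members, against 10.8%, 6.58% and 7.06% of all entries. With negative-control statistics over all entries, 8 members were that far apart between the controls (21.6%, against 7.20%). Control replicate 2 was over 1.5-fold above all others in 1 member and below in 3 with no background correction. Of all 10868 entries, 213 were above and 180 below. In the processed values it was above in 2 members (799 of 10867 entries). Under negative-control statistics over all entries it was below in 2 (222 of 10868 entries). The 7-base core of the E2F motif was in 77.8% of member promoters, against 13.1% of all. The cause of these changes was not tested.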

Other observations

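Some replication genes outside the 42 did not pass the detection filter. Those given here have entries that combine several probes and were chosen after their values were seen. UHRF1, a factor that keeps DNA methylation through replication, had deposited signals of 2243, 1840, 1332 and 1196 on ZNF16 replicate 1, ZNF16 replicate 2, control replicate 1 and control replicate 2. Both ZNF16 arrays lay above both controls. Its log2 difference was 0.91, and 0.84 without control replicate 2, while its detection p-values ran from 0.047 to 0.249. CCNE2, cyclin E2, had signals of 744.3, 613.6, 560.9 and 561.3, with differences of 0.73 and 0.64 in the same order. In both genes the 2 controls lay closer together than the groups did. NASP, a histone chaperone, differed by 0.54, and by −0.01 without control replicate 2, on which it read 772.7 against 1151 to 1203 on the other 3 arrays.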
